A study of Mus musculus with 50 samples.

Results

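NFIA is a nuclear factor I (NFI) protein, a DNA-binding factor that switches on astrocyte genes during gliogenesis and stays expressed in mature astrocytes. NFI proteins bind as dimers to the palindrome TTGGC and GCCAA set 5 bases apart, and more weakly to a single arm of it, called a half-site and written here as TTGGCA. They are also present in some neurons. NFIA occupancy was compared between astrocytes and excitatory neurons (ExN) of mouse primary visual cortex (V1), with 3 libraries in each group, 6 of the 50 samples in the series.

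Both groups were normally reared (NR) mice at postnatal day 14, and each library came from 175000 sorted GFP+ nuclei pooled from 3 to 5 mice. Astrocytes were labelled in mice given as WT by an adeno-associated virus injected on postnatal day 0 or 1, in which the GfaABC1D promoter, a short form of the Gfap promoter, drove an inactive Cre (ΔCre) and a nuclear membrane EGFP. The methods of the study name NFIA profiling of astrocytes only for GR fl/fl mice, in which this virus leaves the floxed glucocorticoid receptor gene intact, so the genotype of these libraries is not settled. ExN were labelled genetically in Slc17a7-Cre;Sun1-GFP mice, in which Cre is made in neurons that express the vesicular glutamate transporter and releases a GFP on the nuclear envelope. The groups thus differ in mouse line and in the way nuclei were tagged, as well as in cell type, and these cannot be told apart. The assay was CUT&RUN, which releases short DNA fragments next to the antibody target with a tethered nuclease. The data are lists of peaks, each called in 1 library against an IgG control by the authors. Overlapping peaks were merged, and a merged region counted as a site of a group when 2 or more of its libraries had a peak there. By this rule astrocytes had 23495 sites and ExN had 215, of 35418 merged regions with a peak in any of the 6 libraries.

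The sequences below were picked because they hold NFI letters, most of them the rare palindrome, to show the motif counted in the results. The first lines are from sites called in all 3 astrocyte libraries and no ExN library, with the NFI letters in capitals.
Cadm1 intron: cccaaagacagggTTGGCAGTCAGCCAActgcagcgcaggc
Slc7a5 intron: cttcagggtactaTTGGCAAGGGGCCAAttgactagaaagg
Dennd2a intron: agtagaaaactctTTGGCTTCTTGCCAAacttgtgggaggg
Pipox promoter: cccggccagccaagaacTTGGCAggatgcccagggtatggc
The next 2 lines are from sites called in all 3 astrocyte libraries and in ExN replicates 1 and 2.
Irf2bpl upstream: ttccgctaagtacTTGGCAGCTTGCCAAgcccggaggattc
Fxyd5 upstream: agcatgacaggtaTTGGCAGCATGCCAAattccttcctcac
The last lines are from sites called in ExN replicates 1 and 2 and in no astrocyte library.
Dhtkd1 intron: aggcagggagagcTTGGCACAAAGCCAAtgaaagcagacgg
Khdrbs3 distal: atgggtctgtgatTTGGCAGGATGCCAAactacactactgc
Slitrk5 distal: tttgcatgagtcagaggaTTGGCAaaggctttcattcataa
Each line is 41 bases of the mm10 build centred on the motif. They lie, in the same order, at chr9:47358204-47358244, chr8:121893112-121893152, chr6:39493322-39493362, chr11:77894222-77894262, chr12:86894477-86894517, chr7:31017577-31017617, chr2:5906274-5906314, chr15:69923411-69923451 and chr14:111249798-111249838. The Slitrk5 line is read on the minus strand and the others on the plus strand. A match to a motif is a description of the letters and does not show that NFIA bound them.

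NFIA gave many more peaks in astrocytes than in ExN. The numbers were 27143, 25441 and 22373 in astrocytes, against 4173, 246 and 1 in ExN. The groups did not overlap, and the spread within ExN was far wider than within astrocytes. The log2 number of peaks was higher in astrocytes by 7.95, an average of 14.60 ± 0.14 against 6.66 ± 6.12 in ExN (SD, n = 3 each; two-sided exact permutation p = 0.1). Without ExN replicate 3, the library with a single peak, the difference was 4.62, or 24.6-fold between the geometric means (exact p = 0.1). A p of 0.1 is the smallest that either design allows, so neither comparison could pass 0.05.

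Over whole lists, the fold of peaks over background was also higher in astrocytes, while the coverage at their summits was not. The median fold of a peak over its local background was 7.11, 7.01 and 6.65 in astrocytes, against 4.17, 4.05 and 5.53 in ExN, where the last value is the single peak of replicate 3. Folds of 10 or more were held by 26.7%, 25.5% and 21.1% of astrocyte peaks, against 1.51%, 4.07% and 0% of ExN peaks. Median summit coverage was 18, 18 and 18 fragments in astrocytes, against 23, 32 and 29 in ExN, and the median local background was 1.37, 1.71 and 1.82 fragments in astrocytes, against 4.86, 6.50 and 4.43 in ExN. Over whole lists, the higher folds in astrocytes thus went with lower background. The strongest astrocyte peaks reached folds of 86.9, 82.6 and 64.8, against 26.5 and 18.4 in ExN replicates 1 and 2. The lists hold no read totals and do not name the IgG library behind each astrocyte list, and the part of sequencing depth and of the control in these numbers was not tested.

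**Figure D1:**
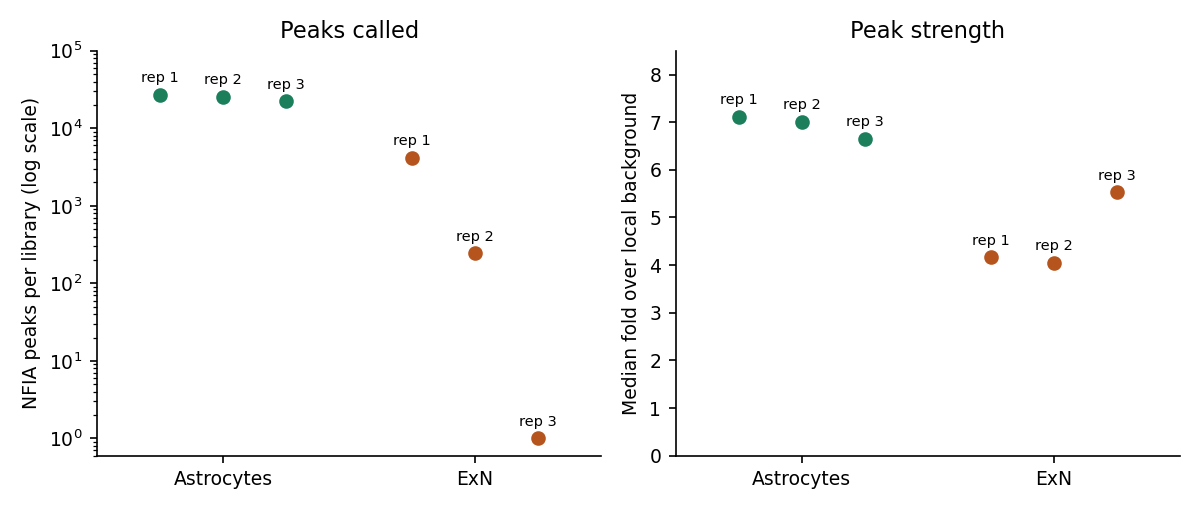
NFIA peaks called in each library (left, log axis) and median fold of the peaks over local background (right), with 1 point per library and 3 libraries per group. The 3 astrocyte libraries sit between 22373 and 27143 peaks, and the ExN libraries at 4173, 246 and 1.

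Astrocyte libraries recovered one another's sites and ExN libraries recovered few of them. Each astrocyte library was scored on the sites called in both other astrocyte libraries, and each ExN library on all 23495 astrocyte sites. The share with a peak was 93.0%, 91.1% and 84.3% in astrocytes, against 8.91%, 0.71% and 0.0043% in ExN. The averages were 89.4% ± 4.58 in astrocytes and 3.21% ± 4.95 in ExN (SD, n = 3 each), and 4.81% ± 5.80 in ExN without replicate 3 (n = 2). The sites were chosen by their peaks in astrocytes, so these shares are a description with no test. With only the 246 best-ranked peaks of every library the averages were 82.7% in astrocytes and 6.22% in ExN replicates 1 and 2, each on the astrocyte sites made from those peaks.

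Of the 23495 astrocyte sites, 17266 were called in all 3 astrocyte libraries, and 21388 (91.0%) had no peak in any ExN library. Regions called in all 3 astrocyte libraries and no ExN library numbered 15368, which is 43.4% of all merged regions. Nearly all of the 2107 astrocyte sites with an ExN peak owed it to replicate 1, which covered 2094, while replicate 2 covered 166 and replicate 3 covered 1. The best-ranked of the 15368 were at the start of Gstm7 (a glutathione S-transferase), 4524 bp upstream of Kctd14 and in introns of Rap1gap2 and Trpm3, an ion channel gene. At the Gstm7 promoter, chr3:107931536-107932042, the folds in the 3 astrocyte libraries were 35.4, 38.4 and 43.0. The Trpm3 intron site, chr19:22916535-22916959, had folds of 84.7, 73.4 and 37.8, and neither had an ExN peak. Others of the first 12 were the promoter of Pipox (pipecolic acid oxidase) with folds of 70.9, 42.7 and 34.7, an intron of Nfic, itself an NFI gene, with 24.5, 23.9 and 19.03, and an exon of the corepressor gene Tle3 with 80.1, 57.2 and 49.6. The remaining 5 were nearest to Cbfb, Serpinf2, Thy1, 1600014C23Rik and 4930432M17Rik, the Thy1 site at a distance of 123189 bp.

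Prdm16, a regulator of neural stem cells, was the nearest gene of 24 sites found in all 3 astrocyte libraries and no ExN library, and Msi2, an RNA-binding protein of progenitors and glia, of 23. Id4, an inhibitor of helix-loop-helix factors, and Ntrk2, which encodes the BDNF receptor TrkB, had 19 each, and no ExN peak was nearest to any of these 4 genes. Zmiz1 had 21, and Pabpc6, Sorl1, Xylt1 and Zfp608 had 18 each. ExN peaks nearest to those 5 genes numbered at most 3 in replicate 1 and 1 in replicate 2. The genes were ranked by sites that lack an ExN peak, so few ExN peaks near them follow in part from the choice. Of all protein-coding genes, 28.4% had a peak within 50 kb in ExN replicate 1 and 2.23% in replicate 2.

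Of the 215 ExN sites, 160 (74.4%) had a peak in at least 1 astrocyte library and 142 in all 3. This depended on the long astrocyte lists. With the 246 best-ranked peaks of each library, 77 of 90 ExN sites (85.6%) had no astrocyte peak. In every one of the 215 the 2 supporting libraries included replicates 1 and 2, so the list is 87.4% of the peaks of replicate 2 and 5.15% of those of replicate 1. The best-ranked sites of both groups were a pair near Bahcc1, an intergenic region near Irf2bpl and the promoters of Tef (a PAR bZIP transcription factor), Arid4a, Cldn12 (a claudin), Pwwp2a and Zfp961, with distal sites nearest to Sipa1l2, Ehf, Irf2bp2 and Kcnq3. Folds near Irf2bpl, chr12:86894267-86894878, were 42.2, 26.2 and 26.7 in astrocytes, against 15.4 and 7.53 in ExN replicates 1 and 2. At the Tef promoter they were 20.8, 20.4 and 16.1 in astrocytes, against 7.80 and 4.70 in ExN. The Sipa1l2 intron, chr8:125558770-125558979, had the highest ExN fold of the first 12, with 32.0, 19.8 and 22.3 in astrocytes and 18.8 and 12.01 in ExN. Over the sites shared with ExN replicate 1, the median fold was 6.54, 6.47 and 5.61 in the astrocyte libraries, against 3.63 to 3.64 in ExN replicate 1, and it was higher in astrocytes at 80.3%, 79.7% and 75.3% of them. Local background at these sites had medians of 4.55, 5.13 and 5.46 fragments in astrocytes and 8.51 in ExN. Median summit coverage at these sites was 48, 48 and 44 fragments in astrocytes, against 33 in ExN replicate 1. At shared sites, unlike over whole lists, coverage was thus higher in astrocytes.

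Sharing went with promoters. A promoter here is a summit within 500 bp of an annotated transcription start. Of 9495 astrocyte promoter sites, 1716 (18.1%, Wilson 95% interval 17.3 to 18.9) had an ExN peak, and of 14000 distal sites, 391 (2.79%, 2.53 to 3.08) did. These intervals cover counting error only. From the other side, 1830 of 2097 promoter peaks of ExN replicate 1 (87.3%) lay on an astrocyte peak, against 479 of its 2076 distal peaks (23.1%). In ExN replicate 2 the shares were 125 of 137 (91.2%) and 48 of 109 (44.0%). Sharing also went with the rank of a site by p-value in astrocytes, though over all sites not with its fold. With the astrocyte sites ranked and cut into 10 bins, the first bin had an ExN replicate 1 peak at 33.6% of promoter sites and 6.43% of distal sites. In the last bin the shares were 9.16% and 1.70%. Distal sites stayed below promoter sites in every bin. The median fold was lower at astrocyte sites with an ExN peak (6.53, 6.47 and 5.60 in the 3 astrocyte libraries) than at those without (7.85, 7.54 and 6.97). At distal sites alone it was higher, at 9.42, 9.14 and 8.42 with an ExN peak and 8.15, 7.54 and 7.06 without.

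**Figure D2:**
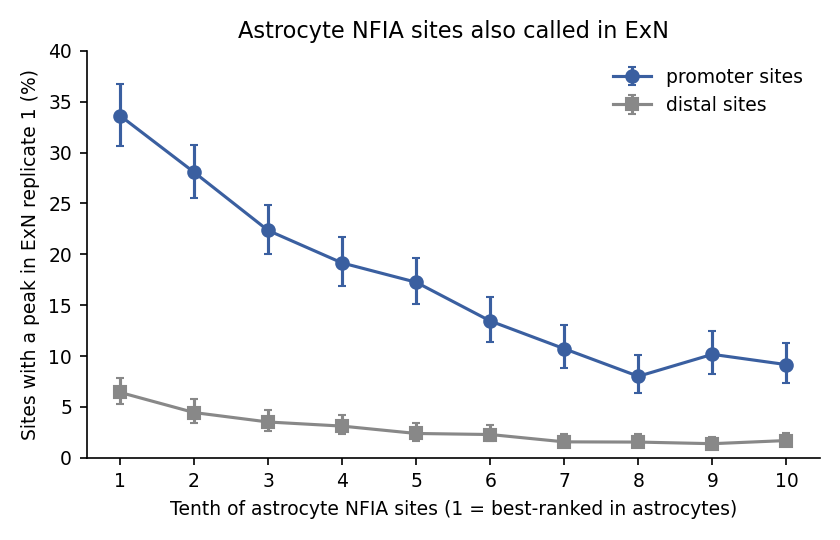
Share of astrocyte NFIA sites with a peak in ExN replicate 1, in 10 bins of the sites ranked in astrocytes (1 is the best), for promoter sites (circles) and distal sites (squares), with Wilson 95% intervals. The promoter line stands at 33.6% in the first bin and 9.16% in the last and lies above the distal line in each bin.

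Peak summits were at promoters in 36.05%, 39.8% and 41.5% of cases in astrocytes, against 50.3%, 55.7% and 0% in ExN, the last being the single peak of replicate 3. With all libraries the averages were 39.1% ± 2.80 in astrocytes and 35.3% ± 30.7 in ExN, a difference of 3.80 points (SD, n = 3 each; exact permutation p = 1). Without ExN replicate 3 the direction turned. The share was then 53.0% ± 3.85 in ExN (n = 2) and the difference -13.9 points, with every astrocyte library below both ExN libraries (exact p = 0.1, the smallest possible). Promoter summits reached 8373, 8776 and 8157 of 21911 protein-coding genes in the astrocyte libraries, against 2209, 147 and 0 in ExN.

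NFI letters were concentrated at summits in both groups. Within 50 bp of the summit, the half-site TTGGCA was present in 18.5%, 16.1% and 15.9% of astrocyte peaks, against 14.6% and 19.1% in ExN replicates 1 and 2 and not in the single peak of replicate 3. In windows of equal length 1 kb to either side it was present in 5.10% to 5.28% for astrocytes and 5.16% to 7.52% for ExN replicates 1 and 2. The difference without ExN replicate 3 was 0.01 points (16.9% ± 1.40, n = 3, against 16.8% ± 3.21, n = 2; exact permutation p = 1), and with it 5.63 points (exact p = 0.5). Over whole lists a difference was thus not detected, but the lists differ in length. With the 246 best-ranked peaks of each library, half-sites were at 31.8% of astrocyte summits and 19.7% in ExN replicates 1 and 2, a difference of 12.1 points (exact p = 0.1, the smallest possible). Full palindromes were rare, in 0.35%, 0.33% and 0.31% of astrocyte peaks, against 0.55% and 2.03% of ExN peaks, with 5 of the 246 peaks of replicate 2 behind the second value. In the flanks the palindrome was seen in at most 0.0079% of windows for astrocytes and in none for ExN replicates 1 and 2. The difference was -0.53 points with all libraries (exact p = 0.7) and -0.96 points without ExN replicate 3 (exact p = 0.1). It turned to 0.20 points with the 246 best-ranked peaks of each library and to 0.051 without ExN replicate 2, so its direction is not fixed.

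**Figure D3:**
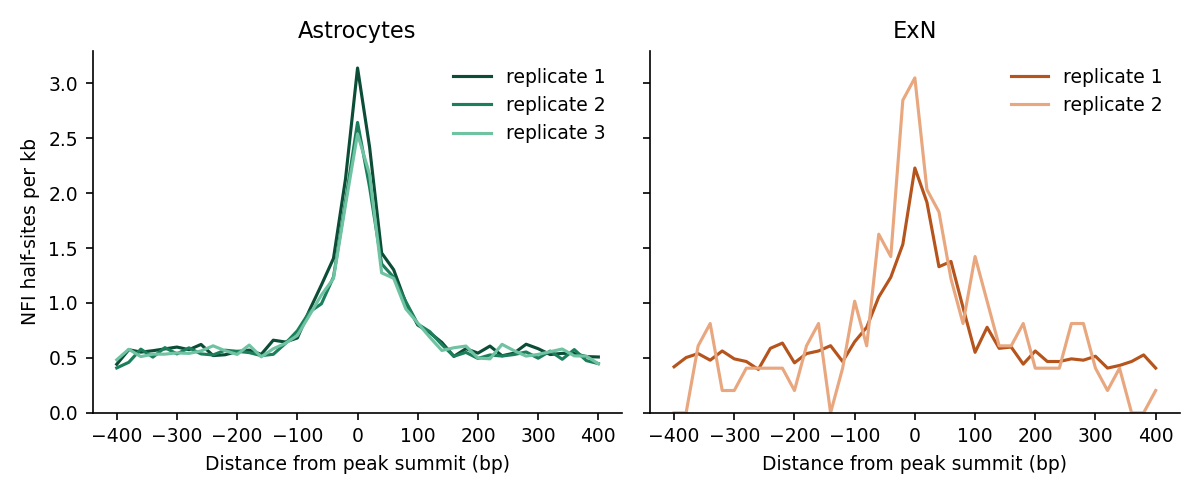
Density of the NFI half-site, in motifs per kb on either strand, in 20 bp bins around peak summits, for the 3 astrocyte libraries (left) and ExN replicates 1 and 2 (right). The central bin holds 3.14, 2.64 and 2.54 per kb in astrocytes and 2.23 and 3.05 in ExN, and all lines fall away from the summit.

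Other motifs differed in share between the groups. None passed its test, and none could, as the smallest p these numbers of libraries allow is 0.1. The CCAAT box, the letters bound by NF-Y and common in promoters, was present at 21.04%, 21.2% and 22.0% of astrocyte summits, against 34.4% and 47.2% in ExN replicates 1 and 2, with 12.4% to 13.8% in flanks. Its reverse strand, ATTGG, can overlap the start of an NFI half-site. SOX letters (ACAAAG) were at 8.67%, 8.71% and 8.23% of astrocyte summits, against 4.03% and 3.66% in ExN replicates 1 and 2. Flanks held them in 8.22% to 8.39% for astrocytes and 8.34% to 8.74% for ExN. Over all positions, astrocyte summits were thus level with their flanks and ExN summits below them. The share differed by position. Astrocyte sites without an ExN peak held SOX letters in 11.7% (11.2 to 12.3) at distal positions and 4.11% at promoters. Distal peaks of ExN replicate 1 held them in 5.39% without an astrocyte peak and 6.05% with an astrocyte peak. The homeobox letters TAATTA, which LHX factors read, were at 2.10% ± 0.05 in astrocytes (n = 3) and 0.90% ± 0.46 in ExN replicates 1 and 2. Over all positions this was below the flanks in both groups (2.45% to 2.56% and 2.24% to 2.48%). At astrocyte sites without an ExN peak the homeobox letters were in 3.04% (2.77 to 3.34) at distal positions and 0.58% at promoters. Without replicate 3, these 3 motifs and the NFI palindrome, CAGCTG and CTCF had no overlap between the groups, each with exact permutation p = 0.1, which is 0.18 after Benjamini-Hochberg adjustment over 11 motifs.

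Sorting ExN peaks by whether an astrocyte peak lay there gave classes of different makeup. Of the 4173 peaks of ExN replicate 1, 2309 lay on an astrocyte peak and 1864 did not. The shared peaks were promoter peaks on high background. They were at promoters in 79.3%, held a CCAAT box in 47.2%, a GC box (GGGCGG) in 38.3% and an NFI half-site in 8.58%, against 4.96% in their flanks. Their median fold was 3.67 on a local background of 8.11 fragments. The unshared peaks were distal. Only 14.3% were at promoters, 45.5% were in introns and 36.5% between genes. They held an NFI half-site in 22.0% (Wilson 95% interval 20.2 to 23.9), against 5.42% in their flanks, and their median fold was 4.95 on a background of 2.03. The half-site shares followed position. At distal peaks alone they were 24.0% (22.0 to 26.1) in unshared and 25.1% (21.4 to 29.1) in shared peaks, with intervals that overlap. Replicate 2 divided the same way on fewer peaks. Its 173 shared peaks were at promoters in 72.3% and held a CCAAT box in 59.0%, and its 73 unshared peaks in 16.4% and 19.2%. NFI half-sites were present in 16.8% of its shared and 24.7% of its unshared peaks, with intervals of 11.9 to 23.0 and 16.2 to 35.6 that overlap.

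Further motifs marked the unshared ExN peaks of replicate 1. The E-box CAGATG, which neuronal basic helix-loop-helix factors such as the NeuroD family bind, was present in 19.6% of the 1864 (17.8 to 21.4), against 7.97% in their flanks and 5.11% of the shared peaks. The AP-1 letters TGANTCA, bound by Fos and Jun proteins, were in 8.37% (7.20 to 9.71), against 3.33% in flanks and 2.43% of the shared peaks. In the astrocyte libraries CAGATG stayed below its flanks, at 5.98%, 5.71% and 5.70% against 7.52% to 7.73%. At distal positions alone, the E-box was in 21.4% (19.4 to 23.4) of unshared and 11.9% (9.30 to 15.1) of shared ExN peaks of replicate 1, and in 7.29% of astrocyte sites without an ExN peak. AP-1 letters were in 9.20% (7.88 to 10.7) of unshared and 6.47% (4.60 to 9.04) of shared distal peaks, and these intervals overlap. Neither motif was raised in the 73 unshared peaks of ExN replicate 2, of which 6.85% held CAGATG and 4.11% AP-1 letters, so this result rests on 1 library.

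Peaks for the glucocorticoid receptor (GR) from the same 2 cell types give a reference with another antibody. In ExN, CAGATG was at 11.6% of NFIA summits in replicate 1, against 13.2%, 9.84% and 11.1% of summits in the 3 GR libraries of ExN. AP-1 letters were at 5.08% of NFIA summits in replicate 1, against 7.39%, 4.92% and 8.27% of GR summits. NFIA replicate 2 was lower and below its flanks, with CAGATG at 4.07% of summits (6.71% in flanks) and AP-1 letters at 1.63% (3.66% in flanks). The NFI half-site was at 14.6% and 19.1% of NFIA summits in ExN replicates 1 and 2, above the 8.66%, 6.56% and 9.002% of GR summits in ExN. Of the 1864 unshared NFIA peaks of replicate 1, 501 had a GR peak in an ExN library and 1363 (73.1%) had none, and the half-site was in 17.6% of the peaks with GR and 23.6% of those without. In astrocytes the half-site was at 15.9% to 18.5% of NFIA summits and at 12.1% to 15.3% of GR summits of the NR libraries.

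**Figure D4:**
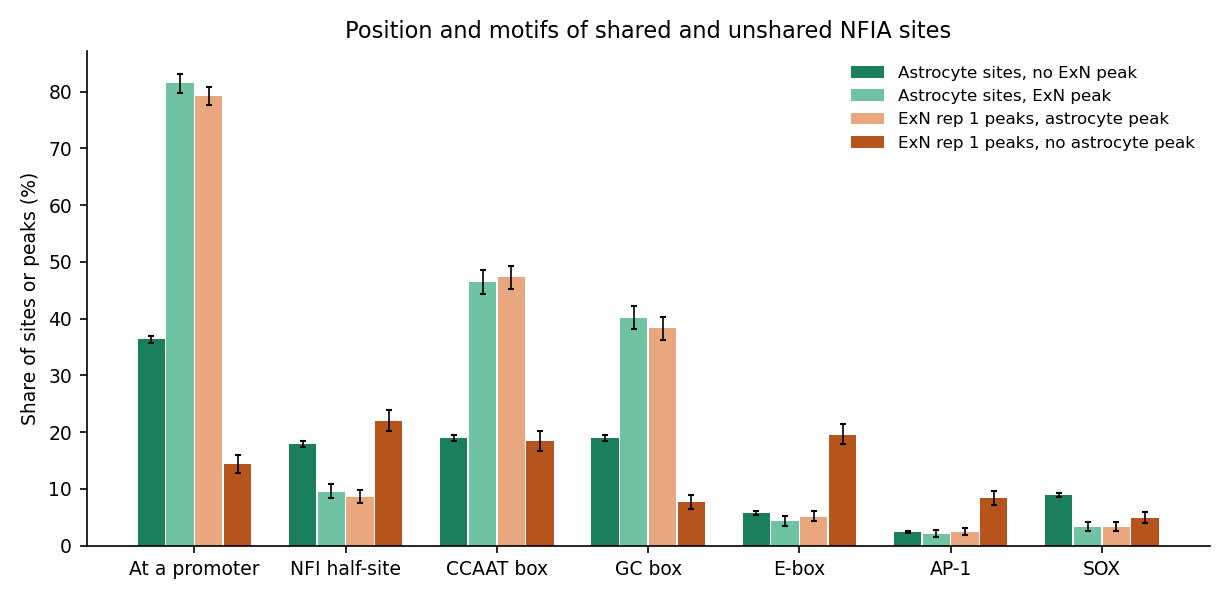
Share of astrocyte sites without and with an ExN peak and of ExN replicate 1 peaks with and without an astrocyte peak that lay at a promoter or held a motif within 50 bp of the summit, with Wilson 95% intervals. The shared sites of either group are at promoters in about 80% and rich in CCAAT and GC boxes, and the E-box and AP-1 letters stand out in ExN peaks without an astrocyte peak.

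Only 55 ExN sites had no astrocyte peak. They are the merged regions called in ExN replicates 1 and 2 and no astrocyte library, 0.155% of all merged regions. Of the 55, 46 were distal, 18 held an NFI half-site and 4 the full palindrome. The best-ranked lay 425310 bp from Slitrk5, a synaptic adhesion gene, at chr14:111249726-111249891, with folds of 19.3 and 18.4 in ExN replicates 1 and 2. An intron of Sobp had 16.6 and 12.5, a region 83554 bp from the cadherin gene Cdh11 had 12.5 and 11.99, and an intron of Grid1, a glutamate receptor of the delta family, had 10.7 and 13.6. An intron of Dhtkd1 and the region near Khdrbs3, both with a palindrome shown above, had folds of 10.7 and 11.4, and of 11.05 and 9.85. Others of the first 12 were near Ptcd2, Piezo1, Gm8797, Dtwd2, Myc and Mtus2.

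Not all of the 55 had folds like these, and of the first 12 the site near Gm8797 had 2.51 and 2.19. Of the 55, 10 had a fold under 3 in a library, on local backgrounds with medians of 77.8 and 91.0 fragments in replicates 1 and 2, and 4 of these lay together on chromosome 17 in the annotated genes Gm26917, CT010467.1 and Gm42418, a locus known to carry a ribosomal RNA repeat unit. That locus, whose nearest protein-coding gene is Esp38, was the only one with 4 ExN sites, and all 4 had a peak in each of the 3 inhibitory neuron (InN) libraries. The other 45 had folds of at least 3 in both libraries, on backgrounds of 1.62 and 1.39. Among them 43 were distal and all 18 half-sites and 4 palindromes were theirs. A peak in an InN NFIA library was found at 9 of the 45, against 7 of the 10, and a GR peak in ExN at 13 of the 45, against 9 of the 10. Of the sites named above, those of Slitrk5, Sobp and Cdh11 each had a GR peak in 2 ExN libraries, and those of Grid1, Dhtkd1 and Khdrbs3 had none. The Slitrk5 site also had an NFIA peak in 2 InN libraries and the Khdrbs3 site in 1.

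Genes of the astrocyte identity list were surrounded by NFIA sites in astrocytes and by almost none in ExN. All 26 astrocyte markers had an astrocyte site within 50 kb of their start, taken for the lists as the outermost start of the gene, against 65.1% of 21911 protein-coding genes, and their median was 6 sites against 1. None had an ExN site, but only 1.97% of all genes did. Peaks within 50 kb of the 26 genes numbered 192, 207 and 207 in the astrocyte libraries, against 7, 0 and 0 in ExN. Over all genes the mean per gene was 2.29, 2.30 and 2.05 in astrocytes and 0.41, 0.023 and 4.6e-05 in ExN. Few ExN peaks were thus the usual state of a gene. At Slc1a3, the glutamate transporter GLAST, the best-ranked site was an intronic region at chr15:8706189-8706536 with folds of 48.9, 41.8 and 38.8 in astrocytes and no ExN peak. A region 23363 bp upstream of Fgfr3 had 39.1, 30.0 and 24.4. Introns of Aqp4, the water channel of endfeet, and Gfap, the intermediate filament, had 28.3, 22.1 and 17.4 and 27.3, 15.98 and 24.2, and a region 9299 bp upstream of Slc1a2, another glutamate transporter gene, had 30.6, 19.3 and 15.5. Gja1, encoding connexin 43 of gap junctions, had a single site, at its promoter, with low folds of 6.74, 7.74 and 7.44.

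The gene that encodes NFIA and its relatives carried astrocyte sites as well. All 4 NFI genes had at least 2 within 50 kb. Nfia had 13, 12 and 10 peaks in the astrocyte libraries and none in ExN, the best in an intron 2452 bp from the start at chr4:97775096-97775323 with folds of 34.5, 19.9 and 19.1. Nfib had 2 in each astrocyte library and none in ExN, and Nfic had 14, 15 and 11 and none. Nfix had 17, 16 and 14 peaks in astrocytes and 5, 0 and 0 in ExN. Of all genes, 28.4%, 2.23% and 0.0046% had a peak within 50 kb in the 3 ExN libraries, so a lack of ExN peaks was common. All 22 gliogenic transcription factor genes had an astrocyte site, against 65.1% of all genes. None had an ExN site, which at 1.97% of all genes says nothing about the list. Sox2 and Sox8 had best sites with folds of 26.1, 23.5 and 26.3, and of 29.3, 22.6 and 19.8. All 10 genes of glutamate uptake and recycling and all 12 of endfoot channels and gap junctions also had one, against 65.1% of all genes. Of the endfoot genes only Clcn2, a chloride channel gene, had an ExN site, 29115 bp from its start, with folds of 9.42, 6.47 and 4.61 in astrocytes, against 3.65 and 4.70 in ExN replicates 1 and 2.

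Among signalling and matrix genes, 16 of 18 Notch and BMP genes and 12 of 14 genes of synapse organisers had an astrocyte site, against 65.1% of all genes. For sites in all 3 libraries without an ExN peak the synapse organisers had 9 of 14 (64.3%), against 54.6%. Notch1, a receptor of that pathway, had 17, 15 and 18 peaks in astrocytes and none in ExN, where most genes had none. Ncan, which encodes the matrix protein neurocan, had the highest fold of any astrocyte peak at its best site, 7755 bp upstream, with 86.9, 65.3 and 44.1. Of 20 housekeeping genes, 19 had an astrocyte site, so a site within 50 kb was not particular to astrocyte lists. The median number of sites per gene was 6 for astrocyte markers, 5 for gliogenic factors, 12.5 for the 4 NFI genes and 5 for Notch and BMP genes, and 4 for housekeeping genes. It was 4 for endfoot genes, 3 for glutamate uptake genes and 2 for synapse organisers, so not all of these lists exceeded housekeeping genes.

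Lists of excitatory and inhibitory neuron markers held fewer astrocyte sites than all genes. Within 50 kb, sites were near 10 of 22 ExN markers (45.5%), 4 of 17 inhibitory neuron markers (23.5%) and 15 of 22 pan-neuronal genes (68.2%), against the 65.1% of all genes. Oligodendrocyte lineage, microglia, and endothelial and mural markers had 11 of 16, 7 of 12 and 6 of 12, and activity-induced genes 14 of 16. Within 10 kb, pan-neuronal genes had 6 of 22 (27.3%), against 45.7% of all genes, and the oligodendrocyte, microglia, and endothelial and mural lists had 4 of 16, 2 of 12 and 1 of 12. Only 1 of the 22 ExN markers was counted with an ExN site, against 1.97% of all genes, too few to say anything about the list. It was Cux2, a transcription factor of upper-layer excitatory neurons, and it had no astrocyte peak within 50 kb. That site, chr5:122081097-122081219, lay 31027 bp from the Cux2 start and 19822 bp from its nearest gene, Myl2. Its folds were 10.3 and 7.70 in ExN replicates 1 and 2, and it held the E-box CAGATG and no NFI half-site. Of the ExN sites without an astrocyte peak, only this one and those nearest to Ptcd2 and Dtwd2 held CAGATG, so the E-box was not typical of them. The site nearest to Myl2 is shown with the E-box in capitals, on the minus strand at chr5:122081088-122081128.
Myl2 distal: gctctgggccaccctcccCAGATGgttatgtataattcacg
Of the 20 housekeeping genes, 2 had an ExN site (10%), against the same 1.97% of all genes. They were Vcp and Ywhaz, both with the site at a promoter that also had peaks in astrocytes. The counts miss starts inside a gene. ExN sites without an astrocyte peak also lay 17269 bp from an internal start of the ExN marker Mef2c, with folds of 6.85 and 7.78, and 4340 bp from one of the pan-neuronal gene Gria1, with 6.72 and 5.71. The lists and all genes were not counted by internal starts, so these sites are examples with no share to compare.

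In ExN replicate 1 alone, peaks without an astrocyte peak were near a larger share of ExN markers and activity-induced genes than of all genes. Its peaks without an astrocyte peak lay within 50 kb of 8.79% of all protein-coding genes, of 7 of 22 ExN markers (31.8%) and of 5 of 16 activity-induced genes (31.2%). The ExN markers were Slc17a7, the vesicular glutamate transporter whose Cre line marked these cells, Camk2a, Cux2, Foxp2, Emx1, Arpp21 and Rasgrf2, and the activity-induced genes were Npas4, Arc, Nr4a2, Junb and Dusp1. Such peaks were near 2 of 26 astrocyte markers, none of 10 glutamate uptake genes, none of 18 Notch and BMP genes, 3 of 22 pan-neuronal genes, 1 of 17 inhibitory neuron markers, 2 of 16 oligodendrocyte lineage markers, 2 of 12 microglia markers, 1 of 12 endothelial and mural markers, 1 of 12 endfoot genes, 1 of 14 synapse organisers, 3 of 20 housekeeping genes, and 1 gene, Nfix, that is in both the NFI and the gliogenic list. Npas4, a neuronal activity-dependent transcription factor, had 3, 2 and 0 peaks within 50 kb in astrocytes and 4, 0 and 0 in ExN. Astrocyte sites without an ExN peak, called in all 3 libraries, were near 54.6% of all genes, all 26 astrocyte markers and 9 of 22 ExN markers. ExN sites without an astrocyte peak were near 0.26% of all genes, and by the same outermost starts Cux2 was the one list gene among them. Leaving out peaks that lie on an astrocyte peak favours genes with few astrocyte peaks, so the contrasts between lists follow in part from that choice. With all peaks of ExN replicate 1, 28.4% of all genes had a peak within 50 kb. By that count 7 of 22 ExN markers, 5 of 26 astrocyte markers, 12 of 16 activity-induced genes and 13 of 20 housekeeping genes had one, so ExN markers were near the share of all genes. The ExN replicate 1 counts have no second library behind them: 55 of the 1864 unshared peaks were also in replicate 2.

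**Figure D5:**
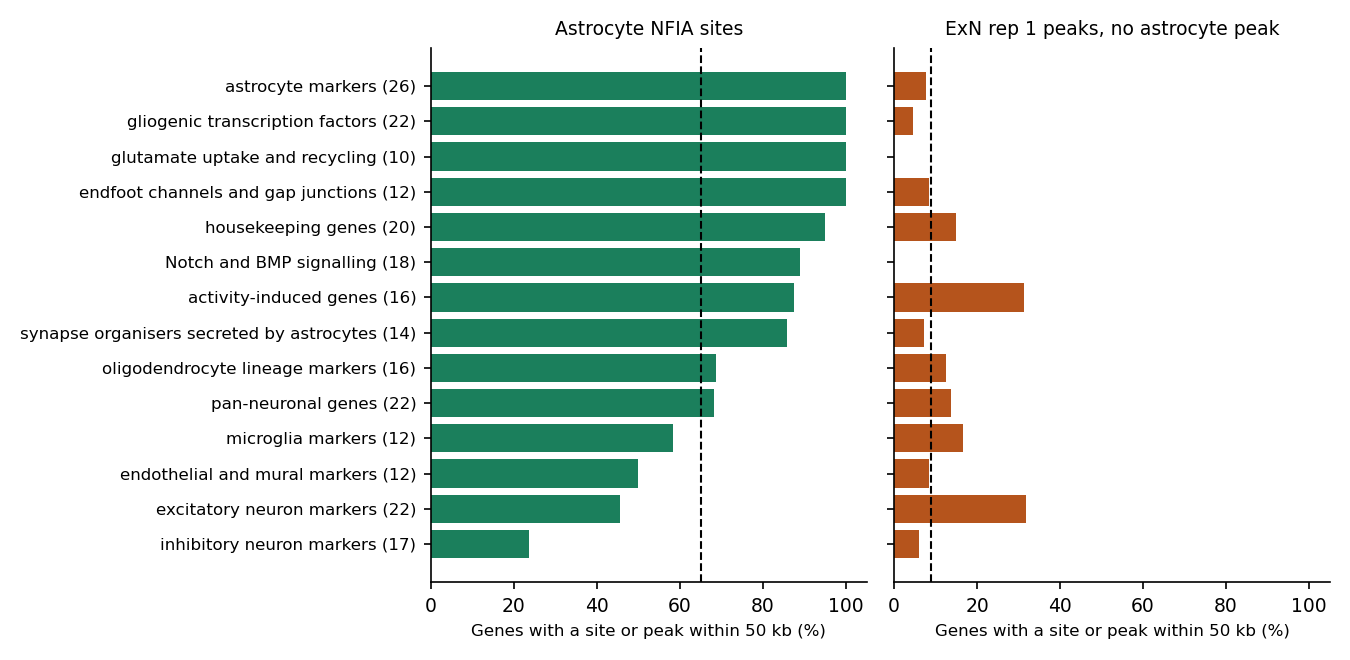
Share of the genes of each list with an astrocyte NFIA site (left) or an ExN replicate 1 peak without an astrocyte peak (right) within 50 kb of the gene start, with the number of genes in brackets and the share of all protein-coding genes as a dashed line (65.1% and 8.79%). Astrocyte lists fill the top of the left panel, and ExN markers and activity-induced genes reach 31.8% and 31.2% on the right.

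NFIA was also profiled in 2 other cell types of the study. Astrocyte sites had a peak in 4.51%, 0.52% and 2.37% of cases in the 3 InN libraries and in 0.78%, 2.81% and 0.41% in the 3 oligodendrocyte (OL) libraries, against 8.91%, 0.71% and 0.0043% in ExN. These ranges overlap. Unshared ExN peaks of replicate 1 had a peak in any InN library in 5.20% (4.28 to 6.31) and in any OL library in 0.32% (0.15 to 0.70). For the 55 ExN sites without an astrocyte peak the counts were 16 in InN and 2 in OL.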

How the data were processed

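Peak lists of NFIA CUT&RUN from 3 astrocyte and 3 ExN libraries were used, with GR, InN and OL lists for reference. Per the labels and methods, the authors trimmed and aligned reads to mm10 (cutadapt, Bowtie2), removed duplicates (Picard, SAMtools), kept fragments of at most 120 bp and called peaks in each library against IgG with MACS2. The deposited lists hold the fold enrichment of each summit over local background, −log10 p and −log10 q values, and a score that MACS2 derives from q, all as the authors' caller wrote them. They hold no read totals, so sequencing depth is unknown, and the summit pileup and background were computed from the fold and p. Every q was under 0.01.

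Peaks overlapping by at least 1 bp were merged, and sites needed 2 libraries of a group. Promoters were summits within 500 bp of a GENCODE M21 start, and motifs were searched on both strands within 50 bp of the summit and at 1 kb on either side. Sequences were read from the GRCm38 RefSeq genome, which has the chromosome lengths of mm10. Gene windows were 50 kb around the outermost start of a gene, and nearest genes were found from any transcript start. Ranks follow the p-value within a library. Libraries were compared by two-sided exact permutation, motif p-values were adjusted by the Benjamini-Hochberg method, and shares have Wilson 95% intervals. Each library pools animals, and p-values measure the spread between libraries. Named sites were the 12 best by rank in each class and named genes the 10 with most sites, with up to 4 examples from each gene list. Some genes that this rule names are not reported here. The sites, lists and tests were chosen with earlier results of these data known. Scripts (Python 3.11.15, numpy 2.4.6, pandas 2.3.3, scipy 1.17.1) were tested on simulated data.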

Additional observations from a re-analysis of the deposited data

How the results depend on the processing

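The number of peaks kept its direction under every alternative run. The promoter share, astrocytes minus ExN, turned round in several. It was -36.7 points with the 246 best-ranked peaks of each library, -10.5 with promoters of 2000 bp and ExN replicates 1 and 2, -7.20 with as many astrocyte peaks as ExN replicate 1 has, and between -13.9 and 13.99 with 1 library left out, the extremes being without ExN replicate 3 and without ExN replicate 2. The palindrome share was 0.20 points with the 246 best-ranked peaks, 0.016 with as many peaks as ExN replicate 1, and between -0.96 and 0.051 with 1 library left out. Astrocyte sites without an ExN peak numbered 216 with 246 peaks per library (92.7%), and made up 92.0% at q of at most 0.001, 91.8% with summits within 100 bp, 89.0% of sites in all libraries, and 89.5% to 99.3% with 1 library left out, the highest without ExN replicate 1. ExN sites without an astrocyte peak were 85.6% with 246 peaks per library, and 0 to 61 sites (0% to 28.4%) with 1 library left out, 0 being without ExN replicate 1 or 2, where a single ExN site is left. The cause was not tested. With the replicate block the peak number difference was 7.95 (exact sign-flip p = 0.25, the smallest possible). Correlations of same-numbered libraries were -0.06, 0.0021 and -0.07. ExN lists of 246 peaks and 1 peak leave such correlations little to show, so they cannot decide whether libraries were paired. The main comparisons took the libraries as unpaired. Few peaks limit ExN replicates 2 and 3.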

Other observations

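NFI half-sites were also present at NFIA summits of the 2 other cell types. They were at 11.1%, 28.1% and 11.4% of summits in the InN libraries, which had 1907, 178 and 1288 peaks, and at 36.3%, 21.9% and 45.9% in the OL libraries, which had fewer peaks than the astrocyte libraries. The palindrome was at 0.68%, 2.25% and 0.54% of InN summits and 5.97%, 2.35% and 6.31% of OL summits.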
